A study of Homo sapiens with 4 samples.

Results

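Amino acid transporters of 6 solute carrier families were followed in AGS gastric cancer cells. The members are the protein-coding genes of the SLC1, SLC3, SLC7, SLC36, SLC38 and SLC43 families, picked by name alone, and they number 40 of the 51103 genes measured. Of these 40, 27 passed a filter on low counts that kept 15030 genes in all, 5 had a few counts but did not pass it, and 8 had a count of 0 in every library. Filtering on counts favours genes that are well expressed in at least 1 group, so statements about the 27 do not cover the other 13.

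AGS is an established cell line from a human gastric adenocarcinoma, grown here with serum and glutamine, and its polyadenylated RNA was sequenced. The labels name 2 FGF2 libraries, from cells given 20 ng/mL of recombinant human fibroblast growth factor 2 and harvested after 24 hours, and 2 NC libraries, a name they do not spell out. The treatment text of the NC libraries also describes FGF2, and no other source used here tells how the NC cells were treated. Separate cultures within a group are not stated. Library 1 and library 2 of a group held 13790335 and 27598608 counts for FGF2 and 14073340 and 27325697 counts for NC. Library 1 exceeded library 2 at 2 of 22043 detected genes for FGF2 and 2 of 22485 for NC, and at 0 of the 40 transporters. Over 9762 and 10105 genes of moderate count, a chi-square comparison of both libraries averaged 0.856 ± 0.021 (SE) and 0.807 ± 0.013 per gene. The libraries of a group thus differed by less than the sampling noise, as if library 2 held the reads of library 1, and were counted as 1 sample (n = 1 per group). No p-value is given, and the comparison is between these 2 samples.

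The label of the cells was set against marker genes. KRT8 and KRT18, keratins of simple epithelia, stood at 190.6 and 199.1 FPKM (counts per length of exon, scaled to the total of the library) in FGF2 library 2 and at 270.3 and 193.0 FPKM in NC library 2, and KRT19 at 47.6 and 27.3 FPKM. Other epithelial and gastric genes were low or absent. EPCAM, an epithelial adhesion molecule, was at 0.518 and 1.19 FPKM, CDH1 (E-cadherin) at 0.0235 and 0.118 FPKM, and CDX1 and TFF1 were at 0 counts in both. Of 8 fibroblast markers 4 passed the filter, and the summed level of the 8 was 83.8 FPKM in FGF2 library 2 against 144.6 FPKM in NC library 2. By the rule given below 3 of the 4 were lower, where 16.3% of all genes tested were. COL3A1, among these 3, had 6 and 137 counts in the libraries 2. It passed the filter through the NC libraries alone, which favoured its call. DCN and LUM, with 0 counts in FGF2 library 2 and 8 and 12 in NC library 2, did not pass. COL1A1, a fibrillar collagen gene, accounted for 59.4 and 103.8 FPKM, while COL1A2 had 0 counts. PDGFRB stood at 6.29 and 21.0 FPKM and THY1 at 18.0 and 18.9 FPKM. Of 6 blood and immune markers 1 passed the filter, CD14, at 0.884 and 1.01 FPKM (46 and 52 counts). PTPRC, the leukocyte marker CD45, had 0 and 2 counts. Of 4 endothelial markers 2 passed, CDH5 and VWF, and the 4 summed to 0.322 and 0.308 FPKM. The part of these marker differences in the values below was not tested.

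Amino acid transporters carry amino acids across the plasma and lysosomal membranes. Some concentrate them with the sodium or proton gradient, and others exchange one amino acid for another. In proliferating cells, glutamine taken up by SLC1A5 and the SLC38 carriers is known to feed metabolism and to be traded by SLC7A5 for leucine and other large neutral amino acids, which signal to the growth kinase mTORC1. SLC7A5 works only as a pair with the glycoprotein SLC3A2 (CD98), its heavy chain. Growth factors and the stress factor ATF4 are known regulators of several of these genes.

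The transporters did not move as one group. The FGF2 sample had more RNA of SLC1A5 and SLC38A1, which take up glutamine, and of SLC43A3 and SLC7A2, and less of SLC7A5, SLC1A3, SLC1A4 and SLC38A4. The call of higher or lower required that both disjoint read sets of the FGF2 group (library 1, and library 2 less library 1) lie at least 1.2-fold above, or below, both NC read sets after scaling. By this rule 6 of the 27 were higher, where 12.1% of all 15030 genes were, and 7 were lower, where 16.3% were. The shares among the transporters were 22.2% and 25.9%. SLC38A5, among the 7 lower, passed the filter through the NC libraries alone, so the filter favoured its call. At 1.5-fold the counts were 2 higher and 4 lower, with 3.9% and 7.9% of all genes called. The median log2 fold change of the 27 was 0.00, in a range from -1.46 to 1.06. That of all genes tested was -0.00, a value that the scaling largely sets. Scaled by the total count, the median of the 27 was -0.084. The median size of the change, whatever its sign, was 0.33 for the transporters and 0.27 for all genes.

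Fold changes are log2 ratios of library 2 of each group, with 0.5 added to counts scaled by TMM, edgeR's trimmed mean normalization. The 95% intervals are exact Clopper-Pearson intervals and cover counting error only. They are too narrow, because the disjoint read sets of a group had a chi-square per gene of 2.54 (FGF2) and 2.50 (NC). FPKM values are scaled by the library total alone. TMM adds 0.09 to every log2 ratio relative to that scale. RNA per cell and the share of cells that express a gene cannot be told apart in such bulk samples.

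**Figure D1:**
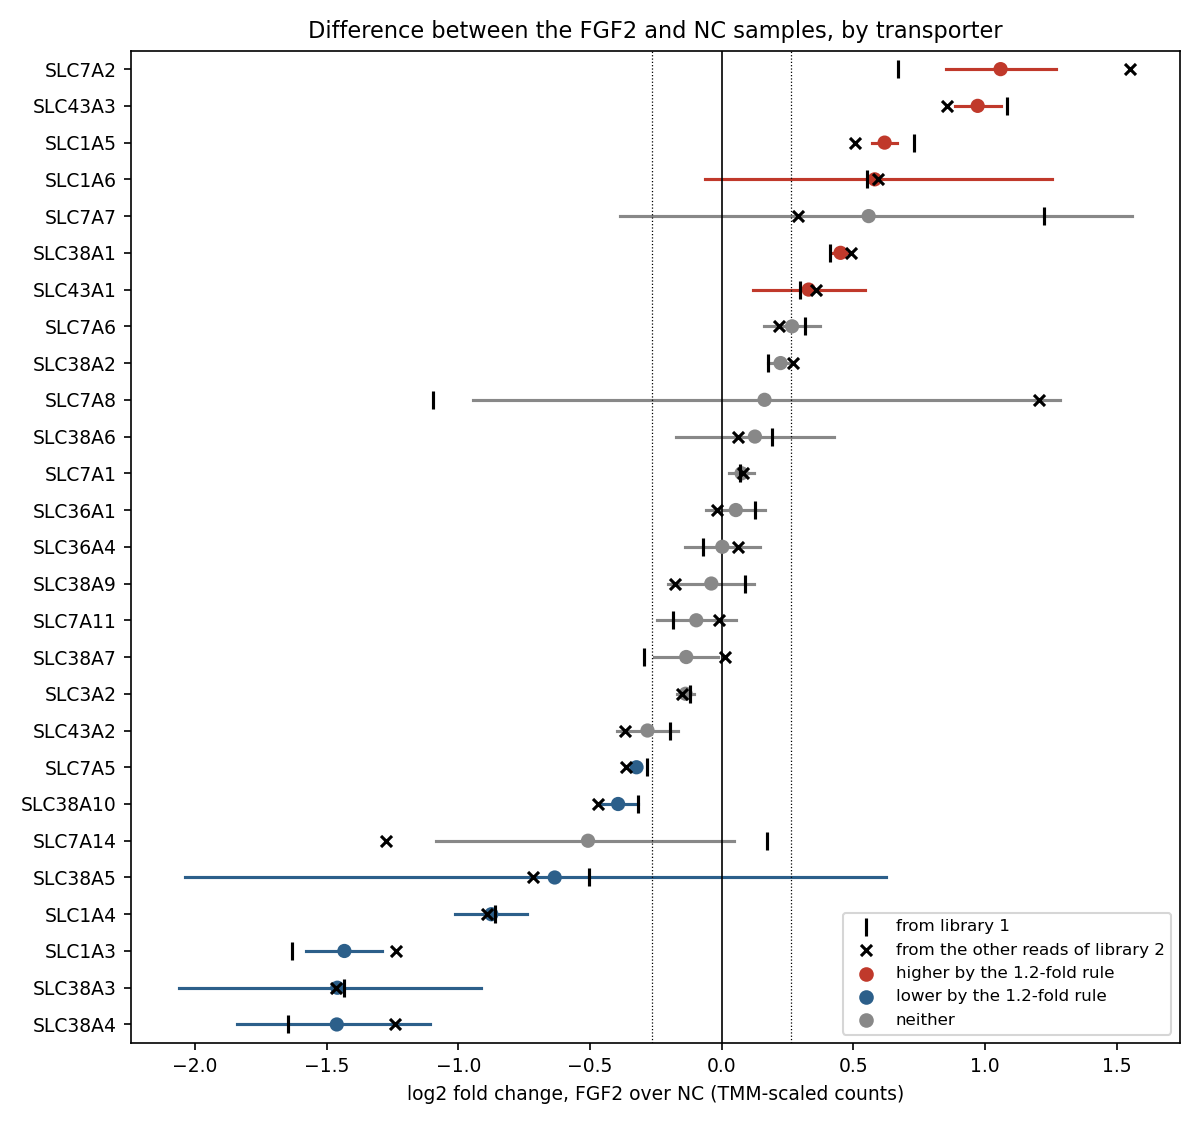
Log2 fold change, FGF2 over NC, of the 27 transporters kept by the filter, on TMM-scaled counts. Dots (red higher, blue lower, grey neither) give the ratio of the libraries 2 and lines its 95% counting interval, ticks and crosses give the ratio from each disjoint read set, dotted lines mark 1.2-fold, and the values run from 1.06 (SLC7A2) to -1.46 (SLC38A4).

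Heteromeric exchangers pair a light chain of the SLC7 family, which moves the amino acid, with a heavy chain of the SLC3 family, which brings it to the membrane. SLC7A5 (LAT1, ENSG00000103257, chromosome 16, 87830023 to 87869488) was the most abundant transporter and ranked 47 among the 15030 genes by mean FPKM. It stood at 324.3 and 320.6 FPKM in FGF2 libraries 1 and 2 and at 421.4 and 426.1 FPKM in the NC libraries. The FGF2 sample was the lower one, with a log2 fold change of -0.32 (-0.34 to -0.31). Library 1 gave -0.28 and the other reads of library 2 gave -0.36. SLC7A5 shares 5.71% of its exon bases with a gene on the opposite strand. Its pseudogene copy SLC7A5P1 had 162 and 124 counts in the libraries 2, against 41987 and 55242 for SLC7A5.

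SLC3A2, the heavy chain of SLC7A5 (ENSG00000168003, chromosome 11, 62856102 to 62888875), stood at 105.7 and 103.2 FPKM in the FGF2 libraries and at 122.8 and 120.5 FPKM in the NC libraries. These levels were also lower in FGF2, but the log2 fold change of -0.14 (-0.17 to -0.11) met neither bound. SLC3A1, the heavy chain of the cystine carrier of kidney and gut, had 1 count in each library 2. The summed FPKM of the light chains that pair with SLC3A2 was 3.21 times that of SLC3A2 in FGF2 library 2 and 3.62 times in NC library 2. SLC7A5 made up 96.9% and 97.8% of that sum.

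The other light chains were far less abundant. SLC7A6 (y+LAT2), an exchanger of cationic for neutral amino acids, stood at 7.24 and 7.34 FPKM in FGF2 and at 6.22 and 6.48 FPKM in NC. Its log2 fold change was 0.27 (0.16 to 0.37), but not every pair of read sets differed by 1.2-fold, so it was not called. SLC7A6 shares 55.6% of its exon bases, with SLC7A6OS and AC020978.9 on the opposite strand. SLC7A11 (xCT), which brings in cystine for glutathione synthesis, stood at 2.42 and 2.57 FPKM in FGF2 and 2.94 and 2.92 FPKM in NC, a log2 fold change of -0.10 (-0.25 to 0.05). SLC7A7, an exchanger of transporting epithelia, had 7 and 24 counts with FGF2 and 3 and 17 in NC. SLC7A8, a neutral exchanger of kidney and gut, had 4 and 16 against 10 and 15 counts. Both intervals included 0, so no difference was detectable at this depth. SLC7A9 had at most 1 count, and SLC7A10 and SLC7A13 had none.

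The 250 bases before the annotated start of SLC7A5 are shown because this gene was the most abundant transporter (RefSeq, GRCh38.p14, chr16:87869508-87869757, minus strand). Capitals mark a match to any of 3 motifs searched on both strands.
SLC7A5: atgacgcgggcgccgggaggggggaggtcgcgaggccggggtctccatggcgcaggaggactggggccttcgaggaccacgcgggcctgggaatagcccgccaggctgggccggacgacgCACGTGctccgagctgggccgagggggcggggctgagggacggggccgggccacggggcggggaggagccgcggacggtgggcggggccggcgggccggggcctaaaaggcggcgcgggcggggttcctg
The match is an E-box (CACGTG, the letters bound by MYC with MAX), 130 bases before the start. The other motifs were the C/EBP-ATF response element that ATF4 binds (TGATGNAA) and the AP-1 site (TGANTCA). Of the 27 transporters 23 had a window that was searched, with 45 windows in all. An E-box lay in 7 of the 45 windows (15.6%) and in 6.34% of all 35116 promoter windows of this length. The AP-1 letters lay in 7 windows (15.6%, against 6.57%) and the C/EBP-ATF letters in 2 (4.44%, against 3.14%). A match describes the letters and says nothing of binding in these cells. MYC itself stood at 136.2 and 133.2 FPKM in the libraries 2.

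SLC1A5 and SLC1A4 are neutral amino acid exchangers of the same family, and they differed in opposite directions. SLC1A5 (ASCT2, ENSG00000105281, chromosome 19, 46774883 to 46788594), a major glutamine carrier of cancer cells, stood at 103.7 and 101.02 FPKM in FGF2 and at 66.7 and 69.9 FPKM in NC. The FGF2 sample was the higher one, with a log2 fold change of 0.62 (0.57 to 0.66). Library 1 alone gave 0.73 and the remaining reads gave 0.50, each outside that interval. SLC1A5 shares 23.8% of its exon bases with genes on the opposite strand, and the counting is not known to use strand, so its level is uncertain.

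SLC1A4 (ASCT1, ENSG00000115902, chromosome 2, 64988477 to 65023865), which favours serine, alanine and threonine, stood at 3.28 and 3.43 FPKM in FGF2 and 6.37 and 6.67 FPKM in NC. The FGF2 sample was lower at -0.87 (-1.01 to -0.74), with -0.86 and -0.89 from the read sets. By FPKM, SLC1A5 was 29.5 times as abundant as SLC1A4 in FGF2 library 2 and 10.5 times in NC library 2. The ratio of SLC1A5 to SLC7A5, the pair linked by glutamine exchange, was 0.320 and 0.315 in the FGF2 libraries and 0.158 and 0.164 in the NC libraries.

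**Figure D2:**
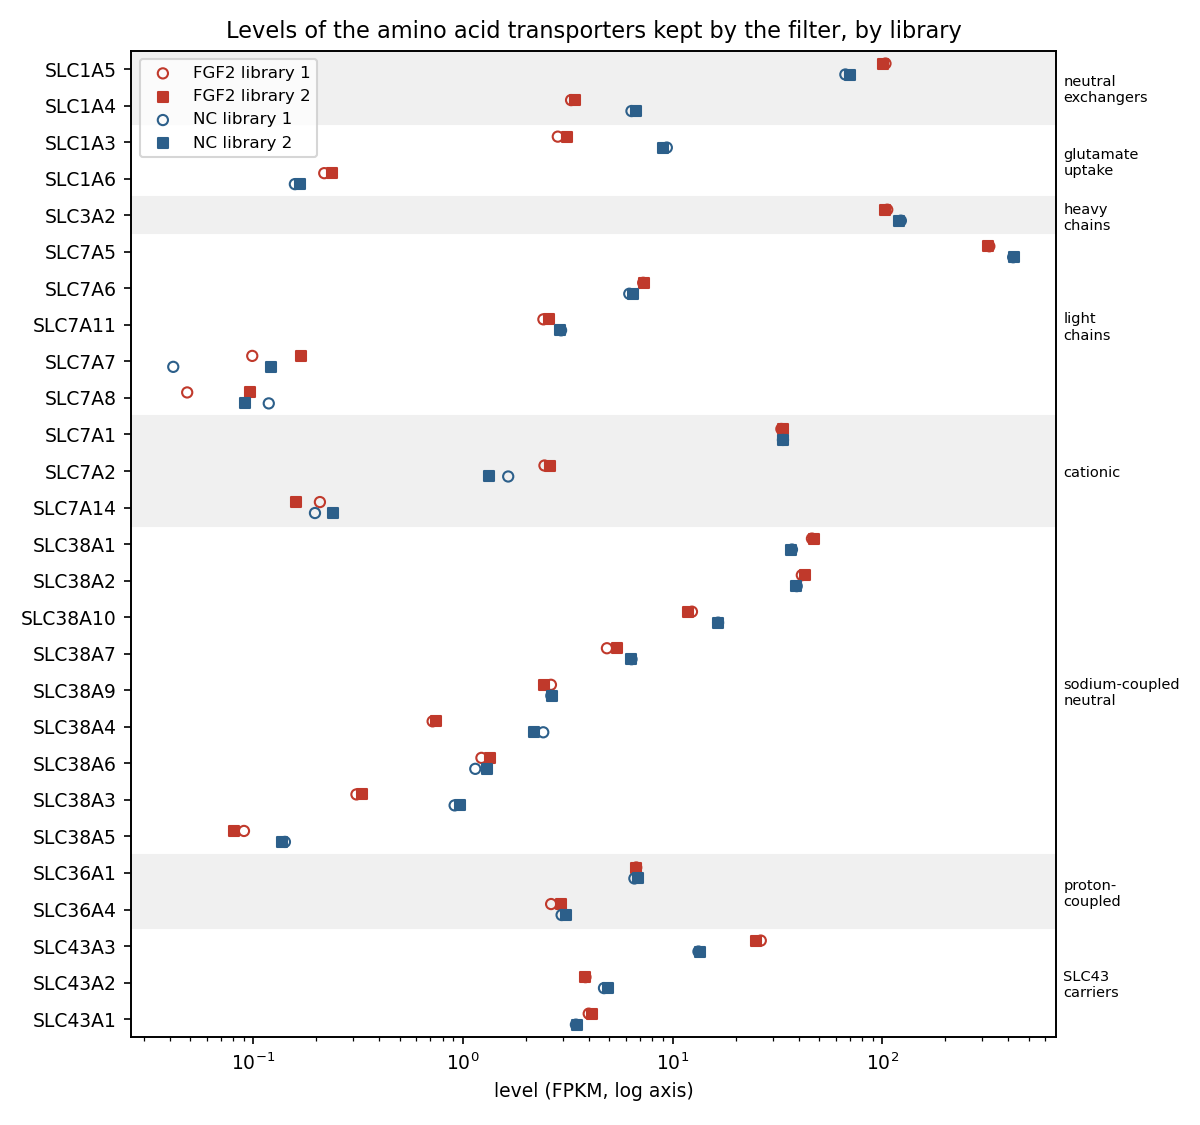
Level in FPKM (log axis) of the 27 transporters kept by the filter in each of the 4 libraries, ordered by class. Open circles are libraries 1 and filled squares libraries 2, red for FGF2 and blue for NC; SLC7A5 is the highest at 320.6 and 426.1 FPKM in the libraries 2, and the SLC1A5 and SLC1A4 markers part in opposite directions.

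The SLC1 family also holds the sodium-coupled glutamate and aspartate carriers, best known from brain. SLC1A3 (EAAT1, ENSG00000079215, chromosome 5, 36606355 to 36688334) was the only one of the 5 above 1 FPKM. It stood at 2.84 and 3.13 FPKM in FGF2 and at 9.39 and 8.97 FPKM in NC, a log2 fold change of -1.43 (-1.58 to -1.29). The read sets gave -1.63 and -1.24. SLC1A6 was called higher on only 50 and 35 counts, at 0.58 with an interval that reached below 0 (-0.07 to 1.25). SLC1A1 had 10 and 13 counts in the libraries 2 and SLC1A2 had 0 and 2. SLC1A7 had 0 counts in both FGF2 libraries and 6 and 12 in the NC libraries. The summed level of the 5 was 3.46 FPKM in FGF2 library 2 and 9.34 FPKM in NC library 2.

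One SLC1A3 window held the C/EBP-ATF letters, 220 bases before a start that lies upstream of the GENCODE gene (chr5:36596338-36596587, plus strand). It is shown as an exon-free window of a member lower in FGF2. The only other match to these letters among the windows searched was in SLC1A5, which was higher in FGF2.
SLC1A3: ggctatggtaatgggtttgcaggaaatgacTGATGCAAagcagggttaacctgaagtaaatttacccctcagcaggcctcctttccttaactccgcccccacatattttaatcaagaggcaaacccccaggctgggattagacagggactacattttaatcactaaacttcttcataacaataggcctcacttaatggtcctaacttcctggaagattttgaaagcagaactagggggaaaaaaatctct
ATF4 mRNA stood at 122.7 FPKM in FGF2 library 2 and 103.6 FPKM in NC library 2, a log2 fold change of 0.33 (0.28 to 0.38). It was narrowly not called, because not every pair of read sets differed by 1.2-fold.

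The SLC38 family, carriers of glutamine, alanine and other small neutral amino acids, had 9 of 11 members past the filter, 1 higher and 4 lower (11.1% and 44.4%, against 12.1% and 16.3% of all genes). SLC38A1 (SNAT1, ENSG00000111371), a sodium-coupled glutamine carrier, stood at 46.2 and 47.4 FPKM in FGF2 and at 37.1 and 36.8 FPKM in NC. It was higher in FGF2, with a log2 fold change of 0.45 (0.41 to 0.49) and 0.41 and 0.49 from the read sets. SLC38A2 (SNAT2), the carrier known to be induced by amino acid shortage, stood at 41.4 and 42.8 FPKM against 39.1 and 38.9 FPKM. The difference of 0.22 (0.18 to 0.27) met neither bound. The ratio of SLC38A1 to SLC38A2 was 1.12 and 1.11 in the FGF2 libraries and 0.949 and 0.946 in the NC libraries.

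Among the lower members, SLC38A4 (SNAT4, ENSG00000139209), a carrier best known from liver, stood at 0.717 and 0.743 FPKM in FGF2 and 2.42 and 2.18 FPKM in NC. Its log2 fold change was -1.46 (-1.84 to -1.11), on 85 and 247 counts, with -1.64 and -1.24 from the read sets. SLC38A3 (SNAT3), a glutamine carrier of liver, kidney and brain, had 36 counts against 105 in the libraries 2, a log2 fold change of -1.46 (-2.06 to -0.91). SLC38A10 (SNAT10) stood at 12.4 and 11.8 FPKM in FGF2 and at 16.5 FPKM in both NC libraries, with a log2 fold change of -0.39 (-0.47 to -0.32). SLC38A5 was called lower on 9 and 15 counts, with an interval from -2.04 to 0.62. It passed the filter through the NC libraries alone, which favoured this call. SLC38A6, SLC38A7 and SLC38A9, the last a lysosomal arginine sensor for mTORC1, stood between -0.13 and 0.13 and met neither bound. SLC38A8 and SLC38A11 had 0 counts.

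SLC38A1, SLC38A2 and SLC38A4 lie on the minus strand of chromosome 12 within 649.3 kb (46183063 to 46832408). Within this stretch the first differed by 0.45, the next by 0.22 and the last by -1.46. The windows before a start of the outer 2 genes are shown because these nearby genes differed in opposite directions (chr12:46266517-46266766 and chr12:46825998-46826247, both minus strand).
SLC38A1: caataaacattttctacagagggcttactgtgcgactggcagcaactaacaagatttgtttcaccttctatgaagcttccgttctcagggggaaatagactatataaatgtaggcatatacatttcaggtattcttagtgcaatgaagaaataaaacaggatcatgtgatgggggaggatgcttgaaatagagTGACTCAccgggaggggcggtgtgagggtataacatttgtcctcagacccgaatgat
SLC38A4: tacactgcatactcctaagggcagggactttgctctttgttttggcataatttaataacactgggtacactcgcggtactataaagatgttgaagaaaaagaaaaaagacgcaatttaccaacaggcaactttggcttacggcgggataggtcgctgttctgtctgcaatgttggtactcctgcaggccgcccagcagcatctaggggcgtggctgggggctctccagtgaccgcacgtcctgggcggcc
Both starts lie inside the gene as GENCODE draws it. The SLC38A1 window held 1 AP-1 match (TGACTCA) 57 bases before the start. The SLC38A4 window held none of the 3 motifs. AP-1 letters also lay before a start of SLC1A3, which was lower in FGF2. The other members with them, SLC36A4, SLC38A9, SLC3A2, SLC43A2 and SLC7A8, were not called. The GC content was 42.4% and 51.6%, against 79.6% in the SLC7A5 window.

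Among the cationic carriers, SLC7A1 (CAT1), the main arginine and lysine importer of dividing cells, stood at 33.0 and 33.5 FPKM in FGF2 and 33.6 and 33.8 FPKM in NC. The log2 fold change was 0.08 (0.03 to 0.12) with TMM and -0.01 when scaled by the total count, so no direction is given. SLC7A2 (CAT2, ENSG00000003989, chromosome 8, 17497088 to 17570573), an inducible arginine carrier, stood at 2.45 and 2.62 FPKM in FGF2 and at 1.64 and 1.33 FPKM in NC. The FGF2 sample was higher by 1.06 (0.85 to 1.27), the largest positive value of the 27. The size depended on the reads used, 0.67 in library 1 and 1.55 in the remaining reads. SLC7A14 had 46 and 69 counts, and its read sets differed in sign. SLC7A3 and SLC7A4 had 0 counts.

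The SLC43 family had 2 of 3 members higher and 0 lower, where 12.1% and 16.3% of all genes tested were. SLC43A3 (ENSG00000134802, chromosome 11, 57406954 to 57427580), which is placed in this family by sequence and is known to carry purine nucleobases, stood at 26.4 and 24.9 FPKM in FGF2 and 13.3 and 13.5 FPKM in NC. It was higher in FGF2, with a log2 fold change of 0.97 (0.89 to 1.06) and 1.08 and 0.85 from the read sets. SLC43A3 shares 29.9% of its exon bases with AP000781.2 on the same strand, which was listed at 0 counts in every library, so its level is uncertain. SLC43A1 (LAT3), a facilitated carrier of branched-chain amino acids, stood at 3.98 and 4.13 FPKM against 3.46 and 3.49 FPKM. Its log2 fold change of 0.33 (0.12 to 0.54) fell short of the rule when scaled by the total count (0.24). SLC43A2 (LAT4) stood at 3.84 and 3.81 FPKM against 4.71 and 4.91 FPKM and met neither bound at -0.28 (-0.40 to -0.17). Scaled by the total count it was at -0.37 and was called lower.

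The proton-coupled carriers of the SLC36 family, which act at lysosomes and the cell surface, differed little. SLC36A1 stood at 6.71 and 6.72 FPKM in FGF2 and 6.58 and 6.87 FPKM in NC, a log2 fold change of 0.05 (-0.06 to 0.17). SLC36A4 was at 0.00 (-0.14 to 0.14). SLC36A2 and SLC36A3, within 215.6 kb of chromosome 5 with SLC36A1, had 0 counts.

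Summed by class, the light chains stood at 330.8 FPKM in FGF2 library 2 and 435.7 FPKM in NC library 2, and the neutral exchangers at 104.4 and 76.6 FPKM. The SLC43 carriers stood at 32.8 and 21.9 FPKM, the sodium-coupled neutral carriers at 112.4 and 105.8 FPKM and the cationic carriers at 36.3 and 35.3 FPKM. The SLC43 difference lay in SLC43A3 (24.9 and 13.5 FPKM), the member known to carry purine nucleobases. SLC43A1 stood at 4.13 and 3.49 FPKM and SLC43A2 at 3.81 and 4.91 FPKM. All 40 transporters summed to 739.0 and 733.0 FPKM in the FGF2 libraries and to 809.1 and 815.1 FPKM in the NC libraries. SLC7A5 alone made up 43.7% of that sum in FGF2 library 2 and 52.3% in NC library 2. Adding up RNA levels weights the abundant genes and says nothing of transport activity.

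**Figure D3:**
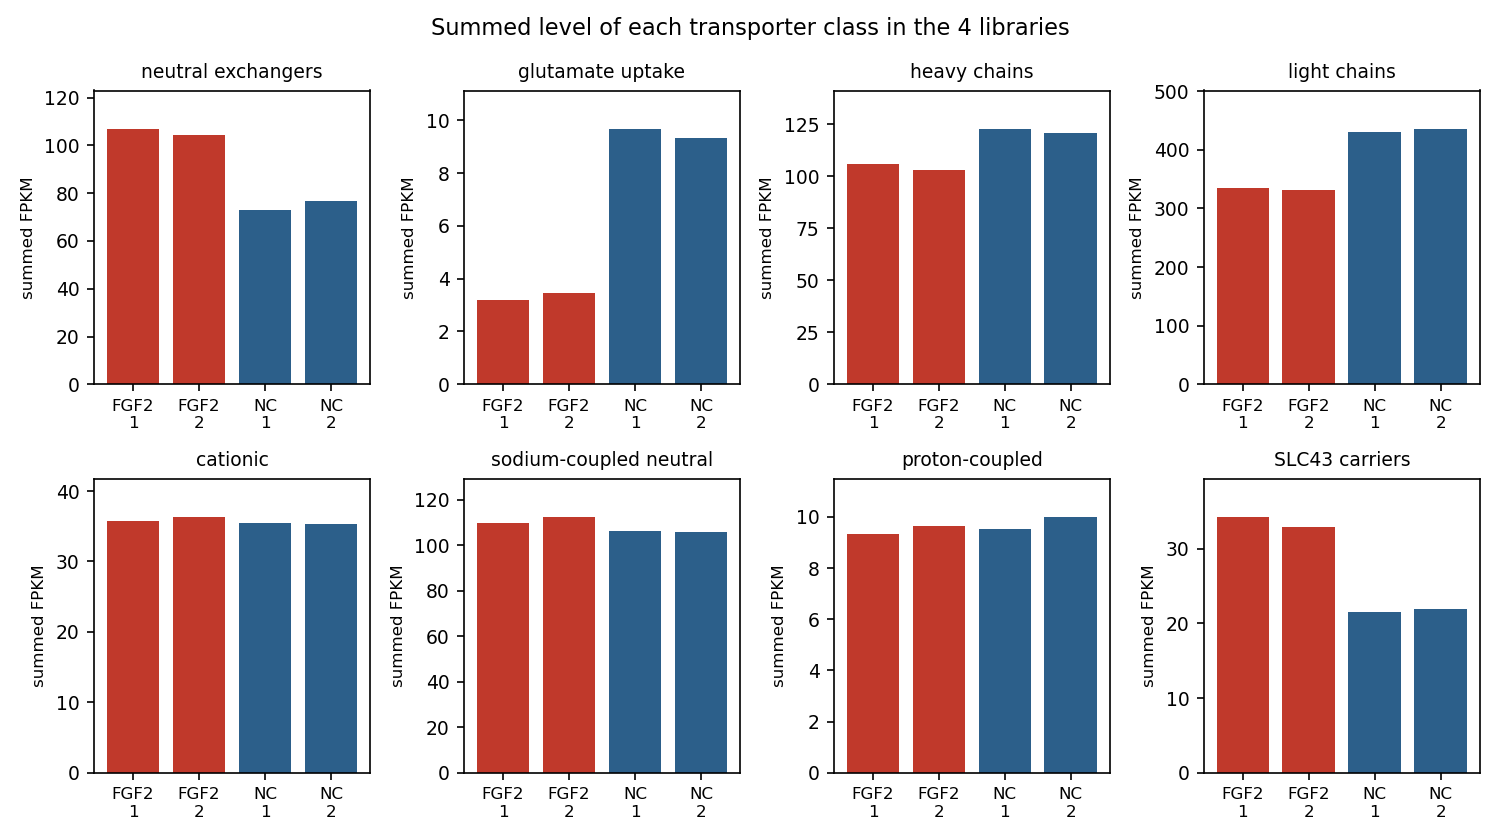
Summed FPKM of each transporter class in the 4 libraries, red for FGF2 and blue for NC, each panel on its own axis from 0. Most of the SLC43 sum is SLC43A3. The neutral exchangers and SLC43 carriers are higher in both FGF2 libraries, as by less are the sodium-coupled and cationic carriers (112.4 against 105.8 and 36.3 against 35.3 FPKM in the libraries 2), and the glutamate carriers, heavy chains and light chains are higher in both NC libraries.

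Other genes of amino acid supply were taken from lists of known function, and their counts stand against 12.1% higher and 16.3% lower among all genes tested. Of 23 amino acid synthesis and glutamine enzymes past the filter, 3 were higher (13.0%) and 1 lower (4.35%), with a median log2 fold change of 0.08. BCAT1, which transaminates branched-chain amino acids, was higher at 0.42 (0.35 to 0.48), ASL, of the urea and arginine pathway, at 0.58 (0.42 to 0.75), and PHGDH, the first enzyme of serine synthesis, was lower at -0.57 (-0.64 to -0.50). ASNS, the asparagine synthetase that ATF4 is known to induce, had only 14 and 4 counts in the libraries 2, and 44.6% of its exon bases are shared with other genes.

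The ATF4 pathway list had 3 of 18 genes higher and 3 lower (16.7% each, against 12.1% and 16.3% of all genes), with a median of -0.05. TRIB3, a feedback inhibitor of ATF4, was higher at 0.76 (0.66 to 0.87), PPP1R15A, a phosphatase subunit that reverses the stress signal, at 0.94 (0.85 to 1.02), and the amino acid sensing kinase gene EIF2AK4 (GCN2) at 0.34 (0.27 to 0.41). ATF3 was lower at -0.90 (-1.09 to -0.71) and EIF2AK1 at -0.36 (-0.42 to -0.30). NUPR1 was also called lower, on 2 and 22 counts, and passed the filter through the NC libraries alone, which favoured its call. Of 34 genes that pass amino acid signals to mTORC1, 0 were higher and 1 was lower (2.94%), against 12.1% and 16.3% of all genes. The lower gene was CASTOR2, at -0.73 (-1.16 to -0.32).

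Mitochondrial amino acid carriers had 3 of 10 higher and 1 lower (median 0.00), where 12.1% and 16.3% of all genes were. SLC25A22, a glutamate carrier, was higher at 0.50 (0.43 to 0.57), SLC25A15, an ornithine carrier, at 0.52 (0.36 to 0.69) and SFXN1, a serine carrier, at 0.39 (0.35 to 0.44). SLC25A29, a carrier of basic amino acids, was lower at -0.60 (-0.70 to -0.49). Carriers of the cell surface and lysosome outside the 6 families had 1 of 9 higher and 2 lower. The taurine carrier SLC6A6 was higher at 0.37 (0.30 to 0.45). The glycine carrier SLC6A9 was lower at -1.36 (-1.89 to -0.88), on 47 and 128 counts, with -2.13 and -0.88 from the read sets. SLC15A3, a lysosomal histidine and peptide carrier, was lower at -1.31 (-1.82 to -0.85). It had 51 and 134 counts, with -1.74 and -0.92 from the read sets. The list of regulators and partners had 4 of 13 higher (30.8%) and 1 lower (7.69%). NEDD4L, a ubiquitin ligase that removes carriers from the membrane, was higher at 1.17 (1.08 to 1.26), and CD44, a partner of SLC7A11, at 1.18 (1.14 to 1.22). NEDD4, a related ligase, was higher at 0.39, and GPX4, which uses glutathione, was lower at -0.70 (-0.77 to -0.62).

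**Figure D4:**
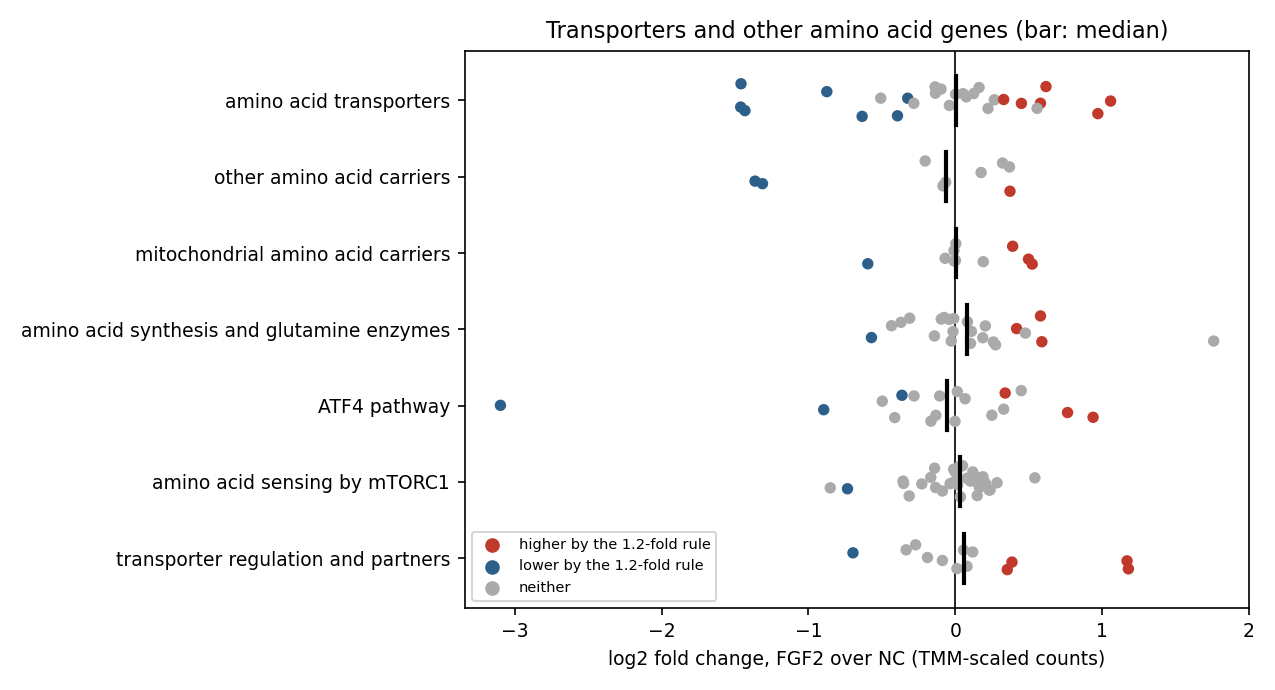
Log2 fold change, FGF2 over NC, of the transporters and of 6 lists of other amino acid genes, 1 dot per gene kept by the filter (red higher, blue lower, grey neither), with a black bar at each median. Medians lie between -0.07 and 0.08; the transporters have called genes on both sides, and the mTORC1 list has 1 called gene of 34.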

How the data were processed

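Polyadenylated RNA of AGS cells was measured in 4 libraries (NEBNext Ultra kit, which does not mark strand). The authors deposited raw counts per gene and FPKM values, which divide counts by exon length and by the library total, per the file headers. The submitters' processing notes list HISAT2, HTSeq 0.13.5 and GRCh38; no source used here names an annotation release. All 51103 identifiers were found in GENCODE v29, and the exon length implied by counts and FPKM matched that release for 99.5% of 11923 genes, so its coordinates (GRCh38) are given. Promoters came from a RefSeq table (GRCh38.p14).

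Libraries were grouped by title. Genes were kept by filterByExpr and scaled by TMM in edgeR 4.0.16, and library 2 less library 1 gave the disjoint read sets. With 1 sample per group no test was made. Values are given for members called at 1.2-fold, for chains of heteromeric exchangers, for the 10 members of highest mean FPKM and for others by range or count, and for at most 5 called genes per list and direction; MYC, ATF4 and ASNS were added after their values were seen. Some called genes of these lists are not reported here. The members, lists and rules were chosen with earlier results of these data known. Alternatives were total-count scaling, DESeq2 1.42.0 size factors, no filter, other group values, single libraries left out, a 1.5-fold bound, log2(FPKM + 1) and members with little exon sharing.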

Additional observations from a re-analysis of the deposited data

How the results depend on the processing

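No paired analysis was possible because each group counts as 1 sample and the comparison has no test. The counts of 6 higher and 7 lower transporters became 2 and 4 at a 1.5-fold bound. With no filter they were 6 and 8, scaled by the total count 5 and 8, among the 24 members that share under 10% of exon bases 4 and 7 (SLC1A5 and SLC43A3 are left out there), from single read sets 8 to 9 and 9, and with at least 50 counts per read set, a limit added after seeing the data, 5 and 5. Leaving out 1 library gave 6 to 8 higher and 7 lower. The median log2 fold change of 0.0021 became -0.084 scaled by the total count, 0.065 from library 1, -0.068 among those 24 members and -0.063 as log2(FPKM + 1), and lay between -0.11 and 0.0021 with 1 library left out. All 13 called members kept their sign in every alternative. The rule largely fixed this in advance, because it asks both read sets to differ in the same direction. Leaving out library 1 of a group repeated the main fold changes. Of the other 14, which the rule did not hold to 1 direction, 8 changed sign in at least 1 alternative. From library 1 the FGF2 over NC ratio of summed FPKM was 0.330 for the glutamate carriers (0.370 from library 2), 1.46 for the neutral exchangers (1.36), 1.03 for the sodium-coupled carriers (1.06), 1.59 for the SLC43 carriers (1.50) and 0.776 for the light chains (0.759). Depth limits SLC1A6, SLC7A7, SLC7A8, SLC7A14 and SLC38A5, whose counting intervals include 0.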
